A study of Drosophila melanogaster with 24 samples.

Results

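The germline differentiation genes bam, bgcn, stil and otu were followed through an RNA-seq series of Drosophila embryos in which the histone deacetylase HDAC3 was knocked down and replaced by wild-type or mutant protein. They are bag of marbles, benign gonial cell neoplasm, stand still and ovarian tumor, 4 of the 17559 genes in the count table. They were taken by symbol, because stil was higher in the knockdown and bam lower in the HEBI rescue, and bgcn and otu were listed with them. The values in HDAC3 shRNA against control, and in every comparison with rescue HEBI, therefore chose the genes and are given here as a description with no test. All 4 genes passed the low-count filter that left 10003 genes for testing.

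RNA was measured in whole embryos 2 to 4 h after egg laying, with 4 biological replicates for each of 6 genotypes (24 libraries). The control genotype carried the driver alone (tub-GAL4/+), and the HDAC3 shRNA genotype the driver over the hairpin transgene (tub-GAL4/shRNA HDAC3). The 4 rescue genotypes carried driver and hairpin together with an HDAC3 transgene resistant to the hairpin, which encoded wild-type (rescue WT), or protein with the Y303F, K26A or HEBI change. Per the study, Y303F was designed to impair catalysis, K26A to weaken binding to the deacetylase-activating domain of the corepressor SMRTER, and HEBI to abolish binding to SMRTER. Each of these mutants was expected to lose catalytic activity, and in the study's assay on protein from S2 cells the loss was comparable. The driver is a maternal alpha-tubulin GAL4-VP16, so that the hairpin acts in the female germline, and the embryos came from F1 females mated to F1 males of the same cross. The rescue transgenes were under the HDAC3 promoter and shared 1 landing site on the second chromosome. The control carried neither the hairpin nor that insertion, so the rescue genotypes differ from it by both. The genotypes named are those of the F1 parents, so embryos of a pool can differ in the transgenes they inherited. Each replicate was a pool of embryos from parents of 1 genotype, and endogenous HDAC3 was present in all genotypes to the extent that the hairpin left it. The study found much endogenous HDAC3 RNA in rescue Y303F. It proposes that wild-type HDAC3 made there accounts for the rescue of hatching.

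In the adult ovary, Bam is the factor that moves the daughter of a germline stem cell out of the stem cell state. BMP signals from the niche repress bam transcription in the stem cell itself. Bam works with Bgcn, a protein related to DExH-box RNA helicases, in translational repression, and with Otu, a deubiquitinase, in stabilising Cyclin A. Otu is required for oogenesis at several steps, and Stil is a chromatin-associated protein of the female germline that controls otu transcription. The embryo receives RNA made in the ovary and also makes its own, and RNA-seq of whole embryos does not separate them. In such bulk samples, fewer cells of a type and less RNA per cell cannot be told apart either.

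In the BDGP6.54 annotation (Ensembl release 115), bam (FBgn0000158) lies on 3R from 25243039 to 25245109 on the minus strand, with 1946 exonic bases. Of these, 224 also belong to exons of CG11854 on the opposite strand, which leaves 88.5% to bam alone. Otu (FBgn0003023) lies on X from 8485008 to 8489535 on the minus strand, with 3420 exonic bases, of which 162 are shared with CG33181 on the opposite strand and 95.3% are its own. Stil (FBgn0003527) lies on 2R from 12570367 to 12571883 on the plus strand with 1171 exonic bases, and bgcn (FBgn0004581) on 2R from 23853270 to 23858921 on the minus strand with 4159 exonic bases. Neither shares an exonic base with another gene, although Pym sits within the bgcn gene. The strand setting of the counting is not given in the sources used here, so reads in the shared stretches of bam and otu cannot be told apart from those of their neighbours.

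The libraries held 9.99 to 26.6 M counts (median 19.6 M, where M is 1000000). HDAC3 itself could not be checked here as the targeted gene: its count was 0 in 24 of 24 libraries, controls included, as was that of CG45100, which is annotated on the same interval. The paper reports HDAC3 protein nearly absent from HDAC3 shRNA embryos by western blot. From reads split by endogenous and resistant sequence, it also reports little HDAC3 RNA there. Libraries that shared a replicate number deviated together from their genotype means, and replicates 1 and 2 stood apart from replicates 3 and 4 for bam, bgcn and otu. What a number means is not stated in the labels, so values are given within these pairs of libraries beside the pooled ones.

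Counts differed widely between the 4 genes. Over the 24 libraries, bam had 351 to 3284 counts and otu 200 to 2531, whereas stil had 41 to 281 and bgcn 7 to 97. Levels are given as CPM, counts per 1000000 of a TMM-scaled library total. Per kilobase of exon, the scale on which genes can be compared, the control mean was 20.6 ± 7.38 CPM per kb for bam, 8.42 ± 3.69 for otu, 2.37 ± 0.442 for stil and 0.577 ± 0.269 for bgcn (SD, n = 4). The order of the 4 genes was the same in HDAC3 shRNA, at 65.4 ± 20.2, 24.7 ± 14.5, 10.6 ± 1.27 and 0.43 ± 0.321 CPM per kb (SD, n = 4).

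**Figure D1:**
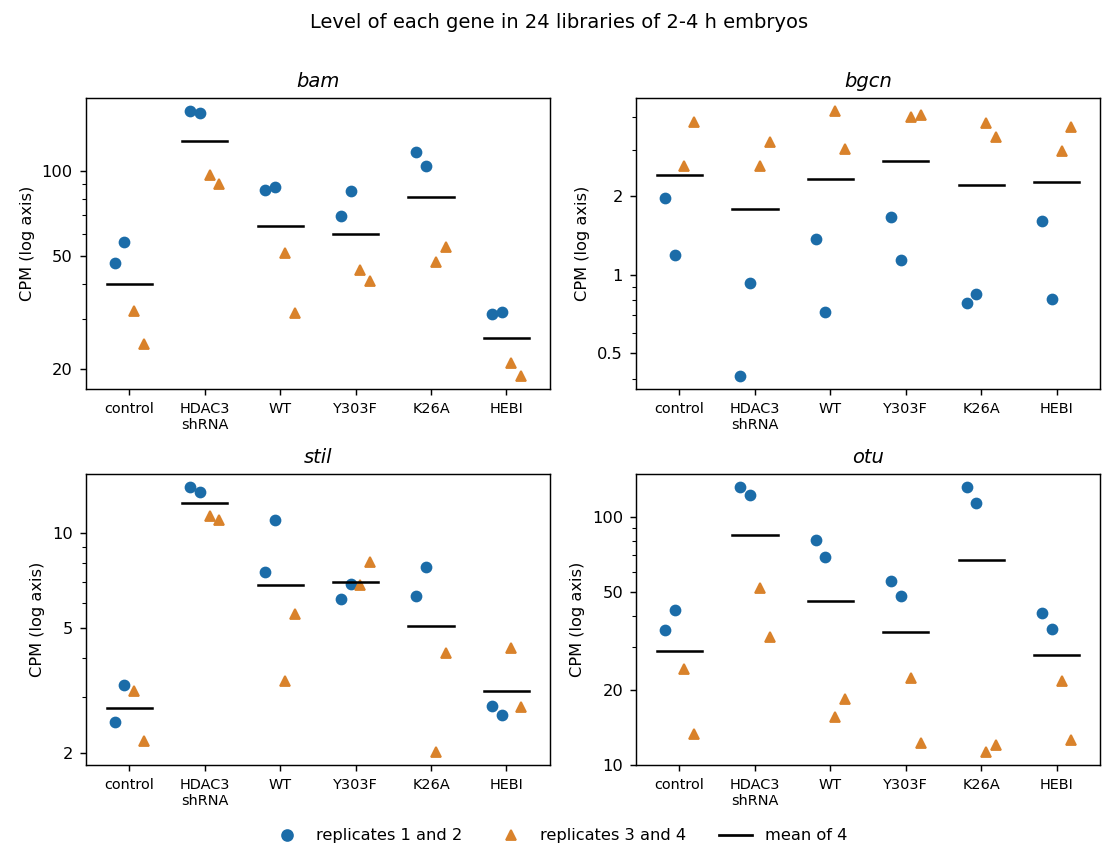
CPM on a log axis for bam, bgcn, stil and otu in each of the 24 libraries, by genotype, with the rescue genotypes named by their transgene. Circles are replicates 1 and 2, triangles replicates 3 and 4, and the bar is the mean of 4. For bam and otu the circles lie above the triangles of the same genotype, for bgcn below, and for stil the HDAC3 shRNA libraries (11.0 to 13.95 CPM) lie above every other library.

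bam, the differentiation switch, stood at 47.3, 56.2, 32.0 and 24.6 CPM in control replicates 1 to 4. In HDAC3 shRNA it stood at 162.5, 160.1, 96.6 and 89.9 CPM, so that every knockdown library was above every control library. Rescue HEBI gave the lowest values of the series, 31.3, 32.0, 21.0 and 18.9 CPM. These overlapped the control range, but each library lay below the control library of its own number.

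The other 3 rescue genotypes fell in between for bam. Rescue WT had 85.95, 88.1, 51.4 and 31.5 CPM, and rescue Y303F had 69.2, 85.2, 44.7 and 41.0 CPM. Rescue K26A had 116.7, 104.2, 47.9 and 54.2 CPM, the highest of the 4 transgenes in replicates 1, 2 and 4. By mean the order was HDAC3 shRNA (127.3 ± 39.4), rescue K26A (80.75 ± 34.8), rescue WT (64.2 ± 27.6), rescue Y303F (60.0 ± 20.9), control (40.0 ± 14.4) and rescue HEBI (25.8 ± 6.81 CPM, SD, n = 4). Every pair of neighbours in that order overlapped, and only the step from HDAC3 shRNA to rescue K26A was larger than the larger of their SDs.

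Set against the library of the same number, bam varied much less than its SDs show. In HDAC3 shRNA the log2 ratio to control was 1.78, 1.51, 1.59 and 1.87 for replicates 1 to 4. In rescue HEBI the log2 ratio was -0.596, -0.815, -0.607 and -0.379, and against HDAC3 shRNA it was -2.38, -2.32, -2.20 and -2.25. Rescue WT, Y303F and K26A were each above control in 4 of 4 pairs and below HDAC3 shRNA in 4 of 4.

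The edgeR fold changes for bam in the comparisons that chose it were 1.67 (SE 0.375, log2) in HDAC3 shRNA against control and -2.30 (SE 0.383) in rescue HEBI against HDAC3 shRNA. They were -0.63 (SE 0.368) against control and -1.32 (SE 0.372) against rescue WT. With the replicate number as a block in the fit, the estimates were 1.69 (SE 0.121), -2.29 (SE 0.124), -0.60 (SE 0.121) and -1.25 (SE 0.122). Within replicates 1 and 2 the log2 fold change of HDAC3 shRNA over control was 1.62, and within replicates 3 and 4 it was 1.68.

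stil, the chromatin-associated regulator, was a low gene with the clearest separation of the knockdown. Control libraries had 2.51, 3.28, 3.14 and 2.19 CPM, and HDAC3 shRNA libraries 13.95, 13.5, 11.35 and 11.0 CPM. No library of any other genotype reached the lowest HDAC3 shRNA library, the nearest being rescue WT replicate 2 at 10.99 CPM. Rescue HEBI was at 2.83, 2.64, 4.31 and 2.80 CPM, 3 libraries within the control range and replicate 3 above it.

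The remaining transgenes left stil at middle levels with unequal spread. Rescue Y303F was the most even, at 6.15, 6.90, 6.82 and 8.09 CPM. Rescue WT ranged over 7.49, 10.99, 3.38 and 5.54 CPM, and rescue K26A over 6.28, 7.79, 2.01 and 4.15 CPM. In rescue WT and K26A, replicates 3 and 4 averaged 0.483 and 0.438 of replicates 1 and 2, against 0.92 in control and 1.14 in rescue Y303F.

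By mean, stil ran from HDAC3 shRNA (12.45 ± 1.49) through rescue Y303F (6.99 ± 0.805), rescue WT (6.85 ± 3.23), rescue K26A (5.06 ± 2.52) and rescue HEBI (3.14 ± 0.782) to control (2.78 ± 0.518 CPM, SD, n = 4). Of these neighbours only HDAC3 shRNA and rescue Y303F did not overlap, and only that step was larger than the larger SD. The log2 fold change of HDAC3 shRNA over control was 2.16 (SE 0.361), with 2.23 in replicates 1 and 2 and 2.03 in replicates 3 and 4. Rescue HEBI differed from HDAC3 shRNA by -1.98 (SE 0.358), from control by 0.18 (SE 0.351) and from rescue WT by -1.12 (SE 0.351). That last value was -1.76 in replicates 1 and 2 and -0.35 in replicates 3 and 4.

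otu, the partner of Bam and the known target of Stil, was higher in replicates 1 and 2 than in replicates 3 and 4 of every genotype. Control libraries had 35.1, 42.2, 24.5 and 13.4 CPM, and HDAC3 shRNA libraries 131.5, 122.5, 51.7 and 32.65 CPM. Each knockdown library was above the control library of its number, by 1.90, 1.54, 1.08 and 1.29 on the log2 scale, although the ranges overlapped. Rescue HEBI had 41.1, 35.35, 21.8 and 12.65 CPM, close to control number by number (log2 ratios 0.226, -0.256, -0.165 and -0.0809).

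Rescue K26A split otu into 2 levels. Replicates 1 and 2, at 131.5 and 114.0 CPM, stood where the knockdown stood, and replicates 3 and 4, at 11.3 and 12.0 CPM, were below the control libraries of their numbers. The mean of replicates 1 and 2 was 10.5 times that of replicates 3 and 4, against 2.04 times in control, 3.01 in HDAC3 shRNA and 2.22 in rescue HEBI. Rescue WT went the same way, with 80.9 and 68.8 against 15.6 and 18.45 CPM, a ratio of 4.40. Rescue Y303F had 55.2, 47.9, 22.5 and 12.3 CPM.

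The order of otu by mean was HDAC3 shRNA (84.6 ± 49.7), rescue K26A (67.2 ± 64.5), rescue WT (45.9 ± 33.8), rescue Y303F (34.5 ± 20.4), control (28.8 ± 12.6) and rescue HEBI (27.7 ± 12.9 CPM, SD, n = 4). All neighbours overlapped, and no step was larger than the larger SD. The edgeR estimate for HDAC3 shRNA over control was 1.55 (SE 0.748), and 1.42 (SE 0.333) with the block. Rescue HEBI differed from HDAC3 shRNA by -1.61 (SE 0.749), from rescue WT by -0.73 (SE 0.735) and from control by -0.05 (SE 0.733).

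bgcn, the partner of Bam in translational repression, did not follow bam. It stood at 1.97, 1.19, 2.60 and 3.84 CPM in control and at 0.408, 0.927, 2.60 and 3.21 CPM in HDAC3 shRNA. Replicates 3 and 4 were above replicates 1 and 2 in every genotype, by 2.03 times in control and up to 4.43 times in rescue K26A, the reverse of bam and otu. Genotype means ran only from 1.79 ± 1.34 CPM in HDAC3 shRNA to 2.72 ± 1.55 in rescue Y303F (SD, n = 4), no step in the order exceeded an SD, and every pair of neighbours overlapped.

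Without the block, the bgcn fold changes were smaller in size than their SEs. HDAC3 shRNA over control was -0.42 (SE 0.688, log2). Rescue HEBI differed from control by -0.09 (SE 0.686), from HDAC3 shRNA by 0.33 (SE 0.688) and from rescue WT by -0.05 (SE 0.685). With the block, HDAC3 shRNA over control was -0.61 (SE 0.303). The estimate was -1.23 from replicates 1 and 2 alone and -0.18 from replicates 3 and 4 alone. In the library with the fewest bgcn reads, HDAC3 shRNA replicate 1, the value rested on 7 counts, so at this depth small differences were not detectable.

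**Figure D2:**
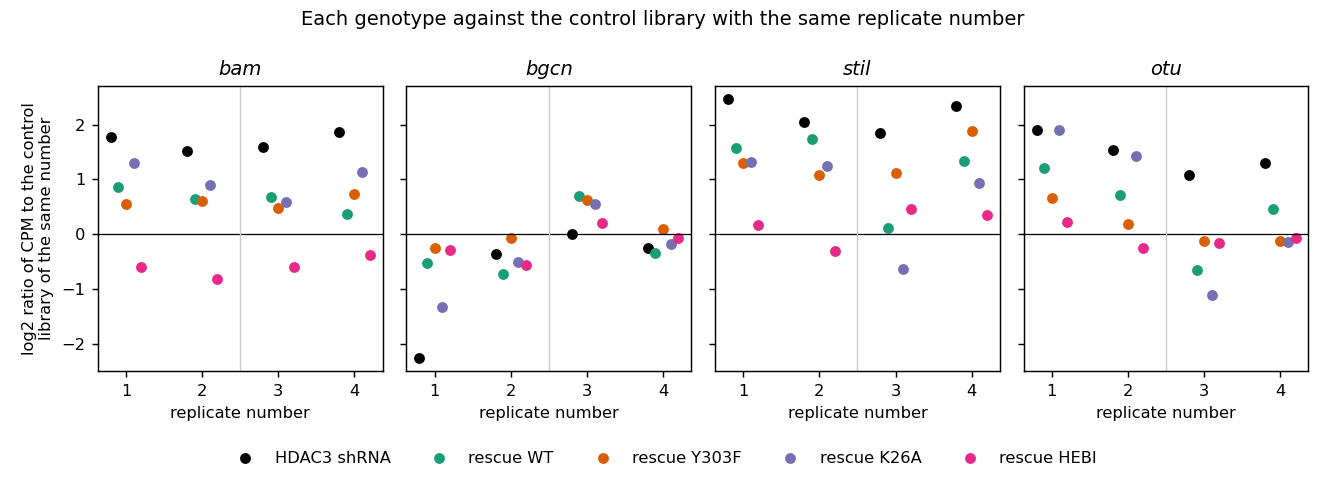
log2 ratio of the CPM of each genotype to the control library with the same replicate number, for replicates 1 to 4, with 1 point a library. HDAC3 shRNA lies above 0 in 4 of 4 pairs for bam, stil and otu. Rescue HEBI lies below 0 in 4 of 4 for bam, and rescue K26A changes side for otu, from 1.90 and 1.43 in replicates 1 and 2 to -1.12 and -0.152 in replicates 3 and 4.

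Of the 12 comparisons, 8 were not used to choose the genes and were tested: rescue WT, Y303F and K26A against control and against HDAC3 shRNA, and rescue Y303F and K26A against rescue WT. The first 6 share control or knockdown libraries with the comparison that chose the genes. A choice on high knockdown values favours a fall from HDAC3 shRNA, and one on low control values a rise over control. The p-values and calls in these 6 are therefore not independent of the choice. A call needed an adjusted p of 0.05 or less (edgeR quasi-likelihood test, Benjamini-Hochberg over all genes tested) and a log2 fold change of at least 1 in size. Without the block, 0 of the 32 tests on these genes was called in edgeR, and 3 were by the DESeq2 Wald test: stil in rescue WT and in rescue Y303F against control, and stil in rescue K26A against HDAC3 shRNA.

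The first question was how far the genes lay below their knockdown level in the rescue genotypes. Rescue Y303F held endogenous wild-type HDAC3 as well, per the study, so its values are not those of the mutant protein alone. bam was lower in 4 of 4 pairs under each transgene, by -0.99 in rescue WT (SE 0.368, adjusted p = 0.235 in edgeR), -1.09 in rescue Y303F (SE 0.369, adjusted p = 0.279) and -0.66 in rescue K26A (SE 0.366, adjusted p = 1.0). With the replicate number as a block, rescue WT (-1.04, SE 0.119, adjusted p = 2.03e-05) and rescue Y303F (-1.10, SE 0.119, adjusted p = 3.35e-06) were called in edgeR. Rescue K26A passed the p threshold with the block but not the fold (-0.70, SE 0.118, adjusted p = 0.00141). All 4 rescue WT libraries and all 4 rescue Y303F libraries lay below every HDAC3 shRNA library for bam, whereas rescue K26A overlapped it. The share of all genes whose libraries lie apart in this way was not counted, here or in the comparisons below.

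stil was also lower than in HDAC3 shRNA in 4 of 4 pairs under each of these transgenes. Libraries did not overlap in any of the 3, a separation not compared with that of all genes. The log2 fold change was -0.86 in rescue WT (SE 0.346, adjusted p = 0.288 in edgeR), -0.83 in rescue Y303F (SE 0.346, adjusted p = 0.41) and -1.30 in rescue K26A (SE 0.350, adjusted p = 0.214). With the block, only rescue K26A was called among these 3 (-1.36, SE 0.308, adjusted p = 0.0107 in edgeR). Rescue WT (-0.92, adjusted p = 0.0263) and rescue Y303F (-0.80, adjusted p = 0.0439) passed on p alone. Within replicates 3 and 4 the rescue K26A value was -1.91, and within replicates 1 and 2 it was -0.96.

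otu was below HDAC3 shRNA by -0.88 in rescue WT (SE 0.735, adjusted p = 0.773 in edgeR), -1.30 in rescue Y303F (SE 0.743, adjusted p = 0.587) and -0.33 in rescue K26A (SE 0.730, adjusted p = 1.0). Rescue Y303F was called with the block (-1.30, SE 0.330, adjusted p = 0.00506 in edgeR), and its value was -1.28 in replicates 1 and 2 and -1.32 in replicates 3 and 4. Rescue K26A gave -0.05 in replicates 1 and 2, against -1.91 in replicates 3 and 4, and was not called with the block (-0.70, adjusted p = 0.212). bgcn was called in none of the 3 comparisons with either fit, with estimates of 0.29 to 0.61 without the block, and its lowest adjusted p was 0.0852, for rescue Y303F with the block.

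Against the background of all genes, these counts were 0 of 4 without the block, where 1.04% of all genes tested were called in rescue WT, 0.71% in rescue Y303F and 0.19% in rescue K26A against HDAC3 shRNA. With the block they were 1 of 4 in rescue WT, where 9.31% of genes were called, 2 of 4 in rescue Y303F, where 8.22% were, and 1 of 4 in rescue K26A, where 1.47% were. Unadjusted p in edgeR was under 0.05 for 2, 2 and 1 of the 4 genes without the block, and for 3, 4 and 3 with it. The share of all genes with an unadjusted p under 0.05 was not counted, here or in the comparisons below. The shares of genes called use a stricter criterion.

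The second question was how far the rescued embryos remained from control. stil was above control by 1.30 in rescue WT (SE 0.353, adjusted p = 0.141 in edgeR), 1.33 in rescue Y303F (SE 0.354, adjusted p = 0.0786) and 0.86 in rescue K26A (SE 0.351, adjusted p = 0.201). With the block, rescue WT (1.24, SE 0.317, adjusted p = 0.0258) and rescue Y303F (1.36, SE 0.317, adjusted p = 0.00909) were called in edgeR, and rescue K26A was not (0.80, adjusted p = 0.0582). Every library of rescue WT and of rescue Y303F was above every control library, the narrowest gap being 3.38 CPM in rescue WT replicate 3 against 3.28 in control replicate 2. The rescue WT estimate was 1.68 in replicates 1 and 2, against 0.71 in replicates 3 and 4, and that of rescue K26A was 1.27 and 0.12.

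bam was above control in 4 of 4 pairs under each transgene, by 0.68 in rescue WT (SE 0.367, adjusted p = 0.995 in edgeR), 0.58 in rescue Y303F (SE 0.367, adjusted p = 0.707) and 1.01 in rescue K26A (SE 0.369, adjusted p = 0.14). With the block these became 0.65 (SE 0.119, adjusted p = 0.00259), 0.59 (SE 0.120, adjusted p = 0.00351) and 0.99 (SE 0.120, adjusted p = 1.57e-05) in edgeR. All 3 passed on p and none reached a log2 fold change of 1, rescue K26A missing it narrowly. The fold changes within replicates 1 and 2 and within replicates 3 and 4 were alike in sign for all 3 (0.75 and 0.51, 0.57 and 0.53, 1.08 and 0.77).

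otu was not called against control with either fit. Its estimates were 0.67 in rescue WT (95% interval -0.85 to 2.20), 0.26 in rescue Y303F (-1.27 to 1.78) and 1.22 in rescue K26A (-0.32 to 2.76) without the block. Rescue K26A gave 1.65 in replicates 1 and 2 and -0.79 in replicates 3 and 4, so the pooled value stood for neither. bgcn estimates without the block were -0.04, 0.19 and -0.13, each with an interval wider than 1 log2 unit on either side of 0. With the block the 95% intervals were -0.84 to 0.41 in rescue WT, -0.56 to 0.70 in rescue Y303F and -0.97 to 0.28 in rescue K26A.

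Of the 4 genes, 0 were called against control without the block, where 0.33% of all genes tested were called in rescue WT, 0.74% in rescue Y303F and 3.44% in rescue K26A. Unadjusted p was under 0.05 for 1, 1 and 2 of them. With the block 1 of 4 was called in rescue WT, stil, where 2.01% of genes were, and 1 of 4 in rescue Y303F, again stil, where 5.85% were. No gene of the 4 was called in rescue K26A with the block in edgeR, where 12.0% of genes were, although 3 had an unadjusted p under 0.05.

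The third question was whether the mutant rescues differed from rescue WT, with endogenous HDAC3 also present in rescue Y303F. It had no library in common with the comparison that chose the genes, other than rescue WT, which also entered rescue HEBI against rescue WT. No gene of the 4 was called for Y303F or K26A with either fit in edgeR or by DESeq2. For Y303F the log2 difference from rescue WT was -0.10 for bam (95% interval -0.86 to 0.66), 0.03 for stil (-0.69 to 0.75), -0.42 for otu (-1.94 to 1.11) and 0.23 for bgcn (-1.19 to 1.65). With the block the intervals narrowed, to -0.31 to 0.19 for bam and to -0.52 to 0.75 for stil. For K26A the difference was 0.33 for bam (-0.43 to 1.09), -0.44 for stil (-1.16 to 0.28), 0.55 for otu (-0.97 to 2.07) and -0.09 for bgcn (-1.51 to 1.33). With the block the bam interval for K26A lay above 0 (0.34, 95% interval 0.09 to 0.59, adjusted p = 0.11 in edgeR) and that of stil did not exclude it (-1.08 to 0.20). stil was below rescue WT in 4 of 4 pairs in rescue K26A, and otu in 2 of 4, the pairs of replicates 3 and 4. Unadjusted p was under 0.05 for 0 of 4 genes in each without the block, where 0.02% of all genes tested were called for Y303F and 0.13% for K26A. With the block it was under 0.05 for 0 and 1 of 4, bam, where 0.53% and 2.03% of genes were called.

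**Figure D3:**
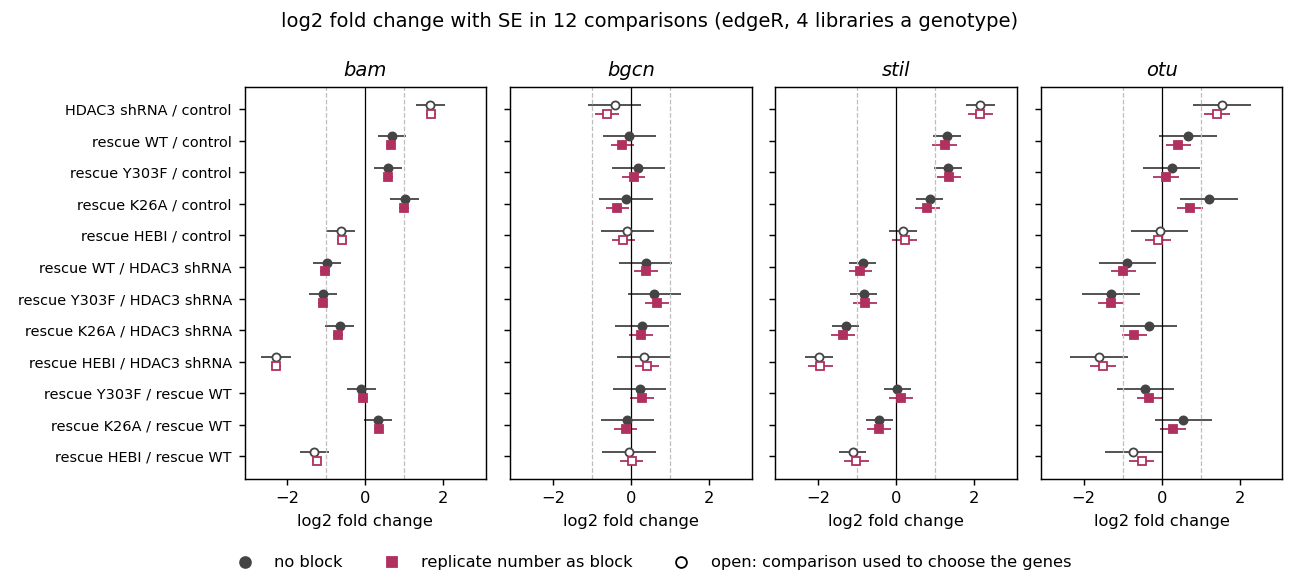
log2 fold change with its SE for bam, bgcn, stil and otu in 12 comparisons, from edgeR unblocked fits (grey circles) and fits blocked on replicate number (red squares), with 4 libraries a genotype. Open symbols mark the comparisons that chose the genes, and dashed lines a log2 fold change of 1 in size. The block shortened the error bars of bam from 0.375 to 0.121 and those of otu from 0.748 to 0.333 in HDAC3 shRNA against control, and those of stil only from 0.361 to 0.319.

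The levels of bam, stil and otu went together over the libraries, with Pearson r of log2 CPM of 0.767 for bam and stil, 0.789 for bam and otu and 0.62 for stil and otu over 24 libraries. After the mean of each replicate number was subtracted, r was 0.797, 0.734 and 0.815. bgcn ran against all 3, at -0.629 with bam, -0.411 with stil and -0.881 with otu (-0.427, -0.489 and -0.656 after subtraction). These are descriptions, since the libraries share genotypes and replicate numbers.

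The genes whose log2 CPM was most like that of bam over the 24 libraries were CG3842 (r = 0.972), HSPBAP1 (0.954) and Prp40 (0.938), a splicing factor. For stil they were CG1998 (0.846), glec (0.843) and CG13252 (0.839), so that no gene followed stil as closely as CG3842 followed bam. For otu they were olf186-M (0.983), Lsd-2 (0.982), a lipid droplet protein, and spir (0.979), an actin nucleator needed for oocyte polarity. For bgcn they were CG30383 (0.966), TBPH (0.965), an RNA-binding protein, and NetA (0.963), a secreted guidance cue. With the means of the replicate numbers removed, r fell to between 0.811 and 0.852 for the 3 genes nearest bgcn but stayed between 0.919 and 0.981 for those nearest bam and otu.

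The rest of the germline pathway was followed in 5 lists of 46 genes chosen by known role, of which 43 were analysed here. In HDAC3 shRNA against control, where 8.37% of all genes tested were called, 1 of the 43 was called higher and 1 lower. Their median log2 fold change was 0.401, against 0.0126 over all genes tested, and 36 of 43 were above 0. By list the median was 0.717 for germ plasm and primordial germ cells (6 of 6 above 0), 0.638 for fusome, cyst and oocyte determination (9 of 10), 0.334 for female germline transcription and identity (4 of 5), 0.288 for Bam partners and translational control (9 of 11) and 0.203 for the BMP pathway (8 of 11).

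The gene called higher was Dad, the inhibitory Smad, which is itself a target of BMP signalling. It stood at 6.06, 5.49, 9.36 and 7.68 CPM in control and at 29.3, 31.45, 19.4 and 11.7 CPM in HDAC3 shRNA, with no overlap. Its log2 fold change was 1.68 (SE 0.382, adjusted p = 0.00841 in edgeR), 2.38 in replicates 1 and 2 and 0.83 in replicates 3 and 4. Dad was also the only gene of the 43 called in rescue HEBI against HDAC3 shRNA (-1.71, SE 0.382, adjusted p = 0.0176 in edgeR), where 1.68% of all genes tested were called. Rescue HEBI had 4.71, 4.99, 9.20 and 9.10 CPM, and the call was lost without HDAC3 shRNA replicate 1 or 2 or rescue HEBI replicate 1 or 2 (adjusted p up to 0.0824 over the libraries left out). The type I receptor gene tkv and the Smad gene Mad, which carry the BMP signal, had log2 fold changes of 0.13 (SE 0.250) and 0.48 (SE 0.410) in HDAC3 shRNA against control and were not called. In the same list dpp (-0.53, SE 0.475), gbb (-0.24, SE 0.669) and dally (-0.26, SE 0.776) were below 0 and were not called. With the block dpp passed on p alone (-0.72, SE 0.213, adjusted p = 0.00828 in edgeR). tkv and Mad were picked for their place in the pathway, and all of these genes after their values were seen.

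The gene called lower was Rbp9, an Elav-family RNA-binding protein needed for cystocyte differentiation. It stood at 2.36, 2.74, 5.68 and 2.83 CPM in control and at 1.52, 1.41, 1.47 and 1.49 CPM in HDAC3 shRNA. The log2 fold change was -1.20 (SE 0.376, adjusted p = 0.0451 in edgeR). It rested on 26 to 94 counts a library, the adjusted p was 0.0781 with no low-count filter, and the call was lost in 14 of the 24 fits that left out 1 library. Without control replicate 3, the highest, the log2 fold change was the smallest of these, -0.87.

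With the replicate number as a block, 20.1% of all genes tested were called in HDAC3 shRNA against control, and of the 43 genes egl, which acts with BicD in moving RNA to the oocyte, was called higher besides Dad (1.0, SE 0.297, adjusted p = 0.0086 in edgeR). In rescue Y303F against HDAC3 shRNA, where 8.22% of genes were called, 6 of 43 were called lower with the block, by -1.04 to -1.42 on the log2 scale. These were Dad, egl, the oocyte translation regulators orb and bru1, and the germ plasm genes osk and pgc. In rescue HEBI against HDAC3 shRNA, where 12.1% of genes were called, 5 of 43 were called lower with the block, Dad, BicD, egl, orb and pgc, by -1.01 to -1.60. Apart from Dad, these genes were named for their calls with the block, after their values were seen. In rescue K26A against HDAC3 shRNA 0 of 43 were called with either edgeR fit or by DESeq2. Only 0.19% of all genes tested were called there in edgeR without the block, and 1.47% with it. Unadjusted p was under 0.05 for 2 of the 43 without the block and 13 with it.

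zpg, the germline gap junction gene, followed another order than bam and otu, and was named after its values were seen. It stood at 11.8 ± 5.11 CPM in control, 22.5 ± 13.4 in HDAC3 shRNA, 52.1 ± 36.5 in rescue WT, 28.5 ± 12.75 in rescue Y303F, 45.1 ± 33.0 in rescue K26A and 28.75 ± 16.1 in rescue HEBI (SD, n = 4). It was above control in 4 of 4 pairs in each of these 5 genotypes. With the block it was called against control in edgeR in all 4 rescue genotypes. The edgeR values were 1.95 in rescue WT (adjusted p = 5.83e-06), 1.27 in rescue Y303F (adjusted p = 0.000449), 1.71 in rescue K26A (adjusted p = 1.3e-05) and 1.19 in rescue HEBI (adjusted p = 0.00107). Of all genes tested, 2.01% were called there in rescue WT, 5.85% in rescue Y303F, 12.0% in rescue K26A and 3.82% in rescue HEBI. Without the block edgeR called it in none of the 4, whereas the DESeq2 Wald test called it in rescue WT (2.13, adjusted p = 0.0386) and rescue K26A (1.93, adjusted p = 0.0286). In edgeR without the block, 0 of the 43 listed genes were called in rescue HEBI against control (0.58% of all genes tested) or against rescue WT (0.04%). The DESeq2 Wald test also called 0 in both, and unadjusted p was under 0.05 for 0 and 1 of the 43. zpg was the only 1 of the 43 listed genes called with the block in rescue WT against HDAC3 shRNA (1.12, SE 0.195, adjusted p = 0.00053 in edgeR). In that comparison 9.31% of all genes tested were called.

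ovo, the female germline transcription factor that acts on otu, was also named after its values were seen. It had 45.0 ± 8.44 CPM in control, 83.0 ± 33.1 in HDAC3 shRNA and 50.5 ± 17.7 in rescue HEBI (SD, n = 4). Like otu it differed between the pairs of numbers in rescue K26A, with a mean of 115.0 CPM in replicates 1 and 2 and 39.3 in replicates 3 and 4. It was not called in HDAC3 shRNA against control (0.89, SE 0.409, adjusted p = 0.181 in edgeR).

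**Figure D4:**
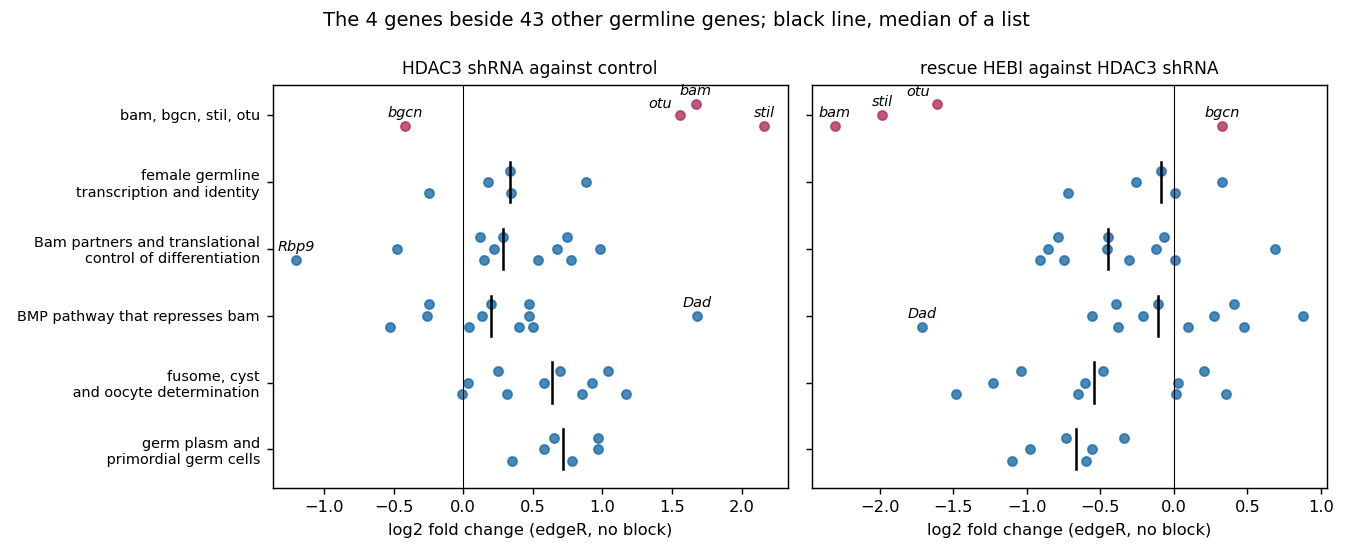
log2 fold change (edgeR, no block) of bam, bgcn, stil and otu (red) and of 43 other germline genes in 5 lists (blue), in HDAC3 shRNA against control (left) and rescue HEBI against HDAC3 shRNA (right). Black lines are list medians, and of the listed genes those called are named. bam, stil and otu, which were chosen on these comparisons, lie beyond the list medians on both sides, and Dad lies nearest them, at 1.68 and -1.71.

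Markers of other stages and tissues were summed per library beside these genes. The 6 germ plasm genes with a value summed to 220 to 353 CPM in control, 284 to 680 in HDAC3 shRNA and 209 to 395 in rescue HEBI. In rescue K26A they summed to 760 to 856 CPM in replicates 1 and 2, against 203 to 239 in replicates 3 and 4, the same split as otu. The part of germ plasm RNA in the otu values was not tested.

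Of the 21 eggshell and yolk genes, which mark ovarian follicle cells, 19 averaged under 1 CPM, and the list summed to 2.13 to 44.2 CPM over all libraries. It summed to 3.20 to 6.95 CPM in control, 2.15 to 17 in HDAC3 shRNA, 4.74 to 44.2 in rescue Y303F and 5.27 to 37.5 in rescue HEBI, and in the knockdown replicates 3 and 4 (12.9 to 17) were above replicates 1 and 2 (2.15 to 5.02). Of the 10 eggshell and yolk genes tested, 1 was called higher in HDAC3 shRNA against control in edgeR. In that comparison 8.37% of all genes tested were called. The log2 fold changes of the 10 ran from -2.41 to 3.27 with a median of 1.27, and 7 were above 0. The part of eggshell and yolk RNA in the levels of bam, bgcn, stil and otu was not tested. Of 12 testis genes 8 averaged under 1 CPM and dj was at 0 in every library, and the list summed to 234 to 335 CPM in replicates 1 and 2, against 108 to 199 in replicates 3 and 4. Without the block, 1 of the 6 testis genes tested was called lower than control in HDAC3 shRNA and in each rescue genotype in edgeR. The lowest log2 fold change of the list was -5.09 in HDAC3 shRNA and -4.65 in rescue WT. It was -5.05 in rescue Y303F, -4.18 in rescue K26A and -5.76 in rescue HEBI. Of all genes tested, 8.37%, 0.33%, 0.74%, 3.44% and 0.58% were called there, in the same order.

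Stage markers differed between libraries, the early blastoderm genes by number in control. The 9 early blastoderm genes summed to 3540 to 4140 CPM in control replicates 1 and 2, against 967 to 985 in replicates 3 and 4, and to 1670 to 2160 and 1020 to 1700 CPM in HDAC3 shRNA, with Sry-alpha at 0 throughout. In rescue K26A the early blastoderm sums overlapped, at 2100 to 2520 CPM in replicates 1 and 2 and 1830 to 2870 in replicates 3 and 4. The 10 cuticle protein genes of the late embryo summed to 3.04 to 722 CPM in control, 0.117 to 5.55 in HDAC3 shRNA and 1.08 to 254 in rescue HEBI. In control they overlapped between replicates 1 and 2 (6.4 to 98) and replicates 3 and 4 (3.04 to 722). The part of embryo age in the levels of bam, bgcn, stil and otu was not tested.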

How the data were processed

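Per the labels, total RNA from TRIzol LS lysates was made into TruSeq Stranded Total RNA libraries, and the authors sequenced them on a NextSeq, mapped reads to dm6 with STAR and counted them with featureCounts. The deposited values are raw whole-number counts per FlyBase gene. The submitters' notes name DESeq2 for their comparisons. For versions, annotation release and strand setting, the sources used here give nothing. Of 17559 identifiers, 17253 were paired with a symbol by Ensembl release 115 names and 306 were not.

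Counts were fitted here with edgeR 4.0.16 (R 4.3.3): TMM scaling (factors 0.862 to 1.23), filterByExpr, genotype means over all 24 libraries, quasi-likelihood tests and Benjamini-Hochberg adjustment over 10003 genes. The code was tested on simulated data. CPM used TMM-scaled totals, and likeness used log2 CPM with a prior count of 2. Total counts of 9987223 to 26573692 limit the precision of the low genes, and counts without molecular identifiers are not independent molecules. Within genotypes, all 36 pairs of libraries differed by more than sampling noise (lowest chi-square per gene 35). Because the biological replicates are pools of embryos, p-values without the block measure the spread between pools of a genotype. With the block they measure the spread left after differences between replicate numbers are taken out.

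Replicate numbers come from the sample titles. Deviations from genotype means correlated in all 60 same-number pairs of libraries (r from 0.184 to 0.797, median 0.615), and 23 of 24 libraries were closest to libraries of their own number. The fit with the number as a block is therefore given where it changes a call. Other alternatives were no low-count filter, DESeq2 1.42.0 size factors, library totals alone, the DESeq2 Wald test, only the genotypes compared, replicates 1 and 2 or 3 and 4 alone, and each library left out.

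The genes and lists were chosen with earlier results of these data known. Named were the 4 genes, every listed germline gene called without the block in at least 1 comparison (up to 4 a list), and the 3 genes most like each of the 4. Other genes, among them those called only with the block, were picked after their values were seen. Of the 46 listed genes, 3 were not analysed here. No sequences are shown.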

Additional observations from a re-analysis of the deposited data

Results flagged for a closer look

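Among 36 levels tested for a library apart (6 genes in 6 genotypes of 4 libraries), 3 had a highest library farther from the others than Dixon's criterion allows, and chance flags about 1 in 20. stil in rescue HEBI was highest in replicate 3, at 4.31 CPM, against 2.64 to 2.83 CPM in the others. Rbp9 in control was highest in replicate 3, at 5.68 CPM, against 2.36 to 2.83 CPM, and without that library the knockdown no longer differed from control at the threshold. Rbp9 in rescue K26A was highest in replicate 1, at 2.49 CPM, against 1.43 to 1.51 CPM. No cause of these was tested.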

How the results depend on the processing

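All values are log2 fold changes with the edgeR adjusted p in parentheses, unless another tool is named. The replicate block added 6 calls on the 4 genes, all given in the report, and changed no other call on them: bam in rescue WT and rescue Y303F against HDAC3 shRNA (-1.04 and -1.10), stil in rescue WT and rescue Y303F against control (1.24 and 1.36), stil in rescue K26A against HDAC3 shRNA (-1.36) and otu in rescue Y303F against HDAC3 shRNA (-1.30). The DESeq2 Wald test called stil in rescue WT against control at 1.28 (0.0261), in rescue Y303F against control at 1.29 (0.0144) and in rescue K26A against HDAC3 shRNA at -1.31 (0.0292).

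Replicates 1 and 2 alone, 2 libraries a genotype, called bam in rescue K26A against control at 1.08 (0.00144) and in rescue Y303F against HDAC3 shRNA at -1.05 (0.00226). They called stil in rescue WT and rescue K26A against control at 1.68 (0.011) and 1.27 (0.00809) and in rescue Y303F against HDAC3 shRNA at -1.06 (0.0155). They called otu in rescue K26A against control at 1.65 (0.000449) and in rescue Y303F against HDAC3 shRNA at -1.28 (0.00118). Replicates 3 and 4 alone called bam in rescue WT and rescue Y303F against HDAC3 shRNA at -1.18 (0.045) and -1.15 (0.0304).

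The sign turned in replicates 3 and 4 alone for otu against control in rescue WT (-0.19), rescue Y303F (-0.19) and rescue K26A (-0.79), for otu in rescue K26A against rescue WT (-0.59), for bam in rescue Y303F against rescue WT (0.024) and for bgcn in rescue WT and rescue K26A against control (0.13 and 0.071). It turned in replicates 1 and 2 alone for bgcn in rescue Y303F against control (-0.17) and for stil in rescue Y303F against rescue WT (-0.51), the latter also with no low-count filter (-0.032) and with library totals alone (-0.0076). None of these was called. In the comparisons given with no test, the sign turned for stil in rescue HEBI against control in replicates 1 and 2 alone (-0.080) and for bgcn in rescue HEBI against rescue WT there (0.22) and with the block (0.024). stil in rescue HEBI against rescue WT moved to -1.76 in replicates 1 and 2 and -0.35 in replicates 3 and 4.

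With 1 library left out at a time there was no call on the 4 genes to lose, and 1 was made, stil in rescue Y303F against control (1.19 to 1.41), at 0.0428 without rescue K26A replicate 3. The sign turned for bam in rescue Y303F against rescue WT (-0.36 to 0.059), stil in the same comparison (-0.20 to 0.32), and otu in rescue Y303F against control (-0.12 to 0.50), rescue K26A against HDAC3 shRNA (-0.92 to 0.015) and rescue K26A against rescue WT (-0.068 to 0.95). For bgcn it turned in rescue WT (-0.48 to 0.26), Y303F (-0.14 to 0.49) and K26A (-0.60 to 0.18) against control, in rescue WT (-0.068 to 0.81) and K26A (-0.14 to 0.71) against HDAC3 shRNA, and in Y303F (-0.088 to 0.67) and K26A (-0.54 to 0.36) against rescue WT. In rescue HEBI it turned against control for bgcn (-0.40 to 0.22), stil (-0.010 to 0.27) and otu (-0.33 to 0.20), and for bgcn against HDAC3 shRNA (-0.0070 to 0.75) and rescue WT (-0.37 to 0.40). Of the calls on listed genes, Rbp9 in HDAC3 shRNA against control was lost in 14 of 24 such fits and Dad in rescue HEBI against HDAC3 shRNA in 4.

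The count of the 43 listed genes called fell from 2 to 1 in HDAC3 shRNA against control with no low-count filter. With the block it was 1 in each of rescue WT, Y303F, K26A and HEBI against control and in rescue WT against HDAC3 shRNA, where it was 0, 6 in place of 0 in rescue Y303F against HDAC3 shRNA and 5 in place of 1 in rescue HEBI against HDAC3 shRNA. The shares of all genes called with the block in these comparisons are given with the results above. DESeq2 called 1 in rescue WT and 1 in rescue K26A against control, zpg in both. Of 444 values under alternative settings, 400 kept their direction and their side of the threshold or, where no test was made, stayed within 1 SD between replicates. Counts of listed genes among them stayed within 1.5 times. The cause of these changes was not tested. With 4 libraries a genotype and a split between replicate numbers, the low counts of bgcn and stil limit what could be detected.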
